A study of Mus musculus with 28 samples.

Results

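Interferon-stimulated genes are the genes a cell switches on when an interferon reaches its surface. The 45 genes described here were chosen by name from that response, with earlier results of these data known. All 45 were found among the 21610 genes of the subset table, the 20603 genes of the treatment table and the 27933 genes of the single-cell table, and all 45 passed the filter on low counts in both bulk tables. Ifit3b was listed in the bulk tables under an older name, I830012O16Rik.

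Type I interferons (alpha and beta) bind the IFNAR receptor, and the kinases JAK1 and TYK2 then activate STAT2, which joins IRF9 in a complex that binds a DNA element called the interferon-stimulated response element (ISRE). Type II interferon (gamma), which CD8+ T cells make themselves, binds the IFNGR receptor and acts mainly through another element, GAS. The products block viruses at many steps: IFIT and OAS proteins recognise or degrade foreign RNA, guanylate-binding proteins and immunity-related GTPases attack compartments that hold pathogens, and USP18 switches the receptor off.

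RNA came from CD8+ tumour-infiltrating lymphocytes of wild-type C57BL/6 mice bearing MC38-OVA tumours, made from a mouse colon carcinoma that carries ovalbumin as a model antigen. For the subset comparison, PD-1- cells were sorted into naive-like (CD62LhiSlamf7-CX3CR1-, n = 6), memory-like (CD62L-Slamf7hiCX3CR1-, n = 5) and effector-like cells (CD62L-Slamf7hiCX3CR1+, n = 3), with no treatment or day named. For the treatment comparison, Tim-3-PD-1- cells (DN) and Tim-3+PD-1+ cells (DP) were sorted on day 12 after tumour implantation, from mice given isotype control antibodies or antibodies to PD-1 and Tim-3 together (blockade), and each of the 4 groups had 3 libraries. Single cells came from 1 library of DN cells per treatment on the same day. Ages and doses are not given in the sources used here, and nothing says which libraries came from separate animals, so the p-values rest on the spread of these libraries alone, which may be technical.

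Bulk libraries held 5027112 to 7978200 counts in the subset and 8005818 to 13579262 in the treatment experiment. Naive-like libraries bear a different date in their names from the memory-like and effector-like ones, and that date cannot be told apart from the group. Effector-like replicates 1 and 2 carry 3 numbers each in their names and may be pools. The name of replicate 2 includes number 5, which replicate 3 also carries, so these may share an animal. The T cell genes Cd3e, Cd3d, Cd3g, Cd8a, Cd8b1, Lck and Cd2 together reached 3031 to 5115 CPM (counts scaled to library size by TMM) in every library of both experiments with no member of that list at 0. Red cell genes moved with treatment: their sum was 2708 to 5310 CPM (DN) and 1403 to 3286 CPM (DP) after isotype, and at most 118 CPM in any blockade library. In bulk RNA, fewer cells of a type and less RNA per cell cannot be told apart.

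The ISRE is a DNA feature that can be sought in these genes with no use of expression. The members were chosen by name from the interferon response, so the share with a match is not independent of that choice. Promoters of 37 of the 45 members were in the RefSeq table for build GRCm38.p6, each covering 250 bases before and 50 after the start. The motif searched was GAAA, any 2 bases and GAAA again, or on the other strand TTTC, any 2 bases and TTTC. It occurred in 21 of the 37 (56.8%), against 1079 of 27025 genes with a promoter in the table (3.99%). The shorter GAS motif TTCNNNGAA, which reads the same on both strands, occurred in 8 of 37 (21.6%), against 9.55% of all genes. The windows below lie upstream of the start of 8 members whose values are given by library, and show where the match lies in genes of different function. They were chosen for holding a match, which 16 of the 37 members lack. Capitals mark every match of the ISRE motif on either strand, and overlapping matches run together.

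Isg15: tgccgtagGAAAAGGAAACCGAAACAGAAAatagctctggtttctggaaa
Ifit1: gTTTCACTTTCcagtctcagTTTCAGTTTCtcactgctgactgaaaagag
Ifit3: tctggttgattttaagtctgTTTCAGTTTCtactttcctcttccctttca
Ifit3b: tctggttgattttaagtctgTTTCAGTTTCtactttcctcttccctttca
Bst2: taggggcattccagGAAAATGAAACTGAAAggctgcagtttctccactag
Stat2: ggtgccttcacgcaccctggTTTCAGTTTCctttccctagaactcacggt
Gbp2: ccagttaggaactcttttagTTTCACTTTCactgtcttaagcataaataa
Slfn8: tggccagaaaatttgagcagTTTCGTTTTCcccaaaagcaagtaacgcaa

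The Isg15 window lies at chr4:156200855-156200904 on the minus strand, and its matches overlap into 1 run of 22 bases. Ifit1 (chr19:34640784-34640833, plus strand) holds a pair of separate matches. The windows of Ifit3 (chr19:34583387-34583436, plus strand) and Ifit3b (chr19:34607783-34607832, plus strand) were identical at 50 of 50 bases. These genes are near copies, so the counting could have divided reads between them and their separate values are uncertain. Bst2 lies at chr8:71537567-71537616 on the minus strand, Stat2 at chr10:128270256-128270305 on the plus strand, Gbp2 at chr3:142620584-142620633 on the plus strand and Slfn8 at chr11:83020829-83020878 on the minus strand. A match is a string of letters and does not show that a factor was bound. The members with and without a match had like medians in the single-cell comparison of blockade with isotype, with log2 ratios of 1.54 (n = 21) and 1.57 (n = 15). In bulk the medians with and without a match (n = 21 and 16) were 0.25 and 0.14 for DN blockade, -0.27 and -0.12 for DP minus DN after isotype, -0.47 and -0.34 after blockade, and 0.09 and -0.15 for effector-like minus memory-like cells.

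In bulk DN cells, most interferon-stimulated genes lay higher after blockade, but by small amounts, and none passed the test. The log2 fold change (blockade minus isotype) was positive for 37 of 45 members, with a median of 0.23 against -0.01 over all 12710 genes tested. With edgeR's quasi-likelihood test, 0 of 45 members had a Benjamini-Hochberg adjusted p under 0.05, where 1.24% of all genes did (0.543% higher, 0.692% lower). At an unadjusted p under 0.05 there were 9 members, all of them higher. The share of all genes at that limit is not given, here or for the comparisons below. DESeq2 called 2 members, and it also called more of all genes than edgeR did, as given at the end. Leaving out DN blockade replicate 2 lowered the median to 0.07.

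Among the IFIT genes, whose products bind viral RNA, Ifit3b stood at 37.1, 56.1 and 53.0 CPM in DN isotype replicates 1 to 3 and at 73.2, 97.4 and 75.4 CPM in DN blockade replicates 1 to 3. The groups did not overlap, and the log2 fold change was 0.75 ± 0.20 (SE, n = 3 per group) with an adjusted p of 0.083 in edgeR. With the title number as a block, Ifit3b passed with an adjusted p of 0.033 in edgeR, and it was the 1 member that did. That pairing rests only on a correlation in these same data, given with the processing. The library names share no number between these groups. Ifit3 stood at 184, 279 and 302 CPM after isotype and at 303, 395 and 319 CPM after blockade, so the highest isotype library lay just under the lowest blockade library. Ifit1 overlapped, with 90.3, 122 and 179 CPM after isotype and 137, 186 and 137 CPM after blockade.

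Slfn8, of the Schlafen family of growth and RNA regulators, had the smallest p. It stood at 69.0, 84.9 and 64.9 CPM after isotype and at 103, 102 and 93.8 CPM after blockade, a log2 fold change of 0.45 ± 0.12 (SE) with an adjusted p of 0.079 in edgeR. Slfn8 and Ifit3b were the members that DESeq2 called, with adjusted p-values of 0.016 and 0.015. Dhx58, which encodes the RNA sensor LGP2, followed with a log2 fold change of 0.48 ± 0.16 (SE) and an adjusted p of 0.18 in edgeR. Isg15, a ubiquitin-like modifier, stood at 35.5, 43.3 and 44.97 CPM after isotype and at 49.2, 67.1 and 54.5 CPM after blockade.

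In all, 8 members had every blockade library above every isotype library (Ifit3, Ifit3b, Isg15, Isg20, Irgm1, Zbp1, Slfn8 and Lgals3bp), and 0 lay wholly below. Over all genes tested, 6.49% were wholly above and 10.2% wholly below. By family, the median log2 fold change was 0.32 for the 4 IFIT genes, 0.41 for the 5 RNA and DNA sensors, 0.36 for the 6 interferon-inducible GTPases and 0.18 for the 5 OAS genes. The 4 genes of the ISG15 system had a median of 0.05. Myeloid marker genes were also higher after blockade, with a sum of 191 to 228 CPM in isotype and 237 to 364 CPM in blockade DN libraries, and 2 of 12 were called; their part in the members' values was not tested.

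**Figure D1:**
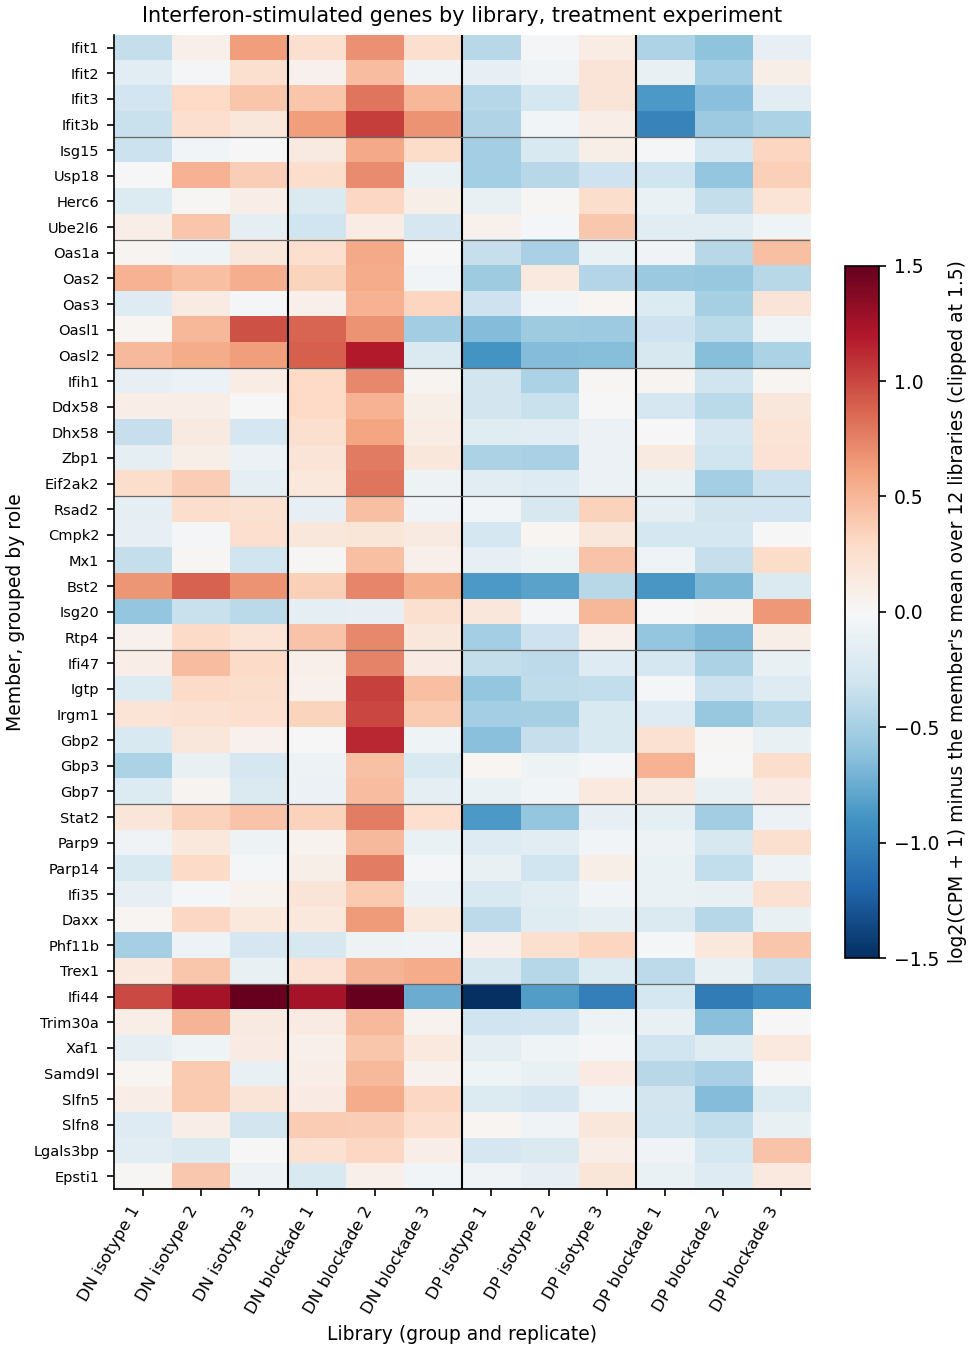
Each row is a member, each column 1 library of the treatment experiment, and the colour is log2(CPM + 1) minus the member's mean over the 12 libraries, clipped at 1.5 either way. DN blockade replicate 2 is the reddest column, with 40 of 45 members at their highest within its group.

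In DP cells, blockade moved the members as a whole in no shared direction. The log2 fold change was positive for 23 and negative for 22 of 45 members, with a median of 0.01. No member passed edgeR's test (0 of 45, where 0.0472% of all genes passed, 0.00787% higher and 0.0393% lower), 2 had an unadjusted p under 0.05, and DESeq2 called 0. All 4 IFIT genes had negative values, with a median of -0.34, and all 6 interferon-inducible GTPases had positive values, with a median of 0.16. Ifit3b had the smallest p and stood at 34.1, 45.6 and 50.2 CPM after isotype and at 22.9, 31.9 and 33.6 CPM after blockade, a log2 fold change of -0.56 ± 0.20 (SE, n = 3 per group) with an adjusted p of 0.61 in edgeR. Slfn8 stood at 80.2, 75.9 and 89.0 CPM after isotype and at 63.8, 61.0 and 73.1 CPM after blockade, a log2 fold change of -0.31 ± 0.12 (SE). Zbp1, a sensor of Z-form nucleic acid, had the third smallest p with a log2 fold change of 0.38 ± 0.18 (SE). Ifit3b and Slfn8 thus lay on opposite sides in DN and DP cells, with no overlap between the treatment groups in either. In DP cells 3 members lay wholly above isotype after blockade (Oasl1, Igtp and Gbp2) and 3 wholly below (Ifit3b, Slfn8 and Ube2l6), against 8.2% and 8.45% of all genes.

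The blockade effect in DP minus that in DN was tested as an interaction. It was negative for 36 of 45 members with a median of -0.19, and edgeR called 0 of 45 members and 0.0% of all genes. The smallest p-values were those of Ifit3b, at -1.31 ± 0.28 (SE), and Slfn8, at -0.76 ± 0.17 (SE), each with an adjusted p of 0.23 in edgeR. Ifit3 followed at -0.79 ± 0.32 (SE). There were 3 members with an unadjusted p under 0.05, and DESeq2 called Ifit3b (adjusted p = 0.0070) and Slfn8 (adjusted p = 0.011). Here too DESeq2 called more of all genes than edgeR did, as given at the end.

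More of the 45 members were called between DP and DN cells than in any other bulk comparison, and the same held for all genes. Most of the members called were lower in DP cells. After isotype, 13 of 45 members (28.9%) were lower in DP cells and 2 (4.44%) were higher by edgeR's test. In both directions together this was 33.3% of the members, near the 29.8% of all genes called, 14.9% lower and 14.9% higher. After blockade, 19 of 45 (42.2%) were lower and 0 higher, where 26.8% of all genes were called, 12.5% lower and 14.4% higher. Every DP library lay below every DN library for 16 members after isotype and 21 after blockade (21.6% of all genes in each arm), and above for 3 and 1 (22.3% and 22.8% of all genes). The median log2 fold change (DP minus DN) was -0.21 after isotype and -0.46 after blockade, against 0.00 and -0.04 over all genes.

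Bst2, which encodes tetherin, a membrane protein that holds budding viruses on the cell, was called with the smallest p after isotype. It stood at 326, 380 and 328 CPM in DN and at 113, 118 and 154 CPM in DP isotype libraries, a log2 fold change of -1.43 ± 0.17 (SE, n = 3 per group) with an adjusted p of 5.3e-05 in edgeR. After blockade it stood at 263, 344 and 298 CPM in DN and at 111, 129 and 177 CPM in DP libraries, a log2 fold change of -1.12 ± 0.17 (SE) with an adjusted p of 0.00043. DN and DP values were far apart in both arms.

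Among the OAS genes, Oasl2 stood at 47.0, 49.3 and 51.9 CPM in DN and at 17.5, 20.9 and 21.01 CPM in DP isotype libraries, a log2 fold change of -1.32 ± 0.28 (SE). In blockade libraries it stood at 62.7, 77.2 and 28.5 CPM in DN and at 28.1, 21 and 23.6 CPM in DP cells, and here DN replicate 3 lay next to the DP libraries. Oas2, which makes the 2-5A signal that activates an RNase, was lower in DP cells in both arms, by -0.78 ± 0.20 (SE) after isotype and -0.86 ± 0.20 (SE) after blockade on the log2 scale. Oasl1 passed after isotype at -1.20 ± 0.33 (SE).

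Stat2, a subunit of the factor that binds the ISRE, stood at 100, 113 and 119 CPM in DN and at 48.0, 58.8 and 80.9 CPM in DP isotype libraries. Its log2 fold change was -0.82 ± 0.19 (SE) with an adjusted p of 0.0058 in edgeR, and -0.72 ± 0.19 (SE) after blockade. Irgm1, an immunity-related GTPase, stood at 175, 179 and 182 CPM in DN and at 106, 107 and 130 CPM in DP isotype libraries. It stood at 191, 304 and 200 CPM in DN and at 133, 102 and 115 CPM in DP blockade libraries, a log2 fold change of -0.99 ± 0.16 (SE). Ifi44, expressed at a low level, had the largest fold change, at -3.09 ± 0.66 (SE) after isotype, from 11.8, 14.4 and 19.95 CPM in DN to 0.599, 2.62 and 2.18 CPM in DP libraries. Ifi47, Trex1 (a DNA exonuclease that limits DNA sensing), Slfn5 and Daxx were lower in both arms.

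No IFIT gene passed after isotype, and 3 of 4 did after blockade. Ifit3b differed by -1.48 ± 0.20 (SE) on the log2 scale after blockade, with an adjusted p of 0.00017 in edgeR, and Ifit3 by -1.11 ± 0.23 (SE), with an adjusted p of 0.0046. Slfn8 differed by -0.60 ± 0.12 (SE). The interaction above is the test of a difference between the arms, and it called none of these genes in edgeR. Of the called members, 10 were lower in both arms (Bst2, Daxx, Ifi44, Ifi47, Irgm1, Oas2, Oasl2, Slfn5, Stat2 and Trex1), which is 76.9% of the isotype list and 52.6% of the blockade list. The same overlap over all genes is not given here, so these shares cannot be read as a trait of the members. Isg20, a 3' to 5' exonuclease, and Phf11b went the other way after isotype. Isg20 stood at 49.4, 59.0 and 55.8 CPM in DN and at 83.8, 73.6 and 105 CPM in DP cells, a log2 fold change of 0.68 ± 0.19 (SE) with an adjusted p of 0.015. Phf11b rose by 0.49 ± 0.13 (SE) on that scale.

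**Figure D2:**
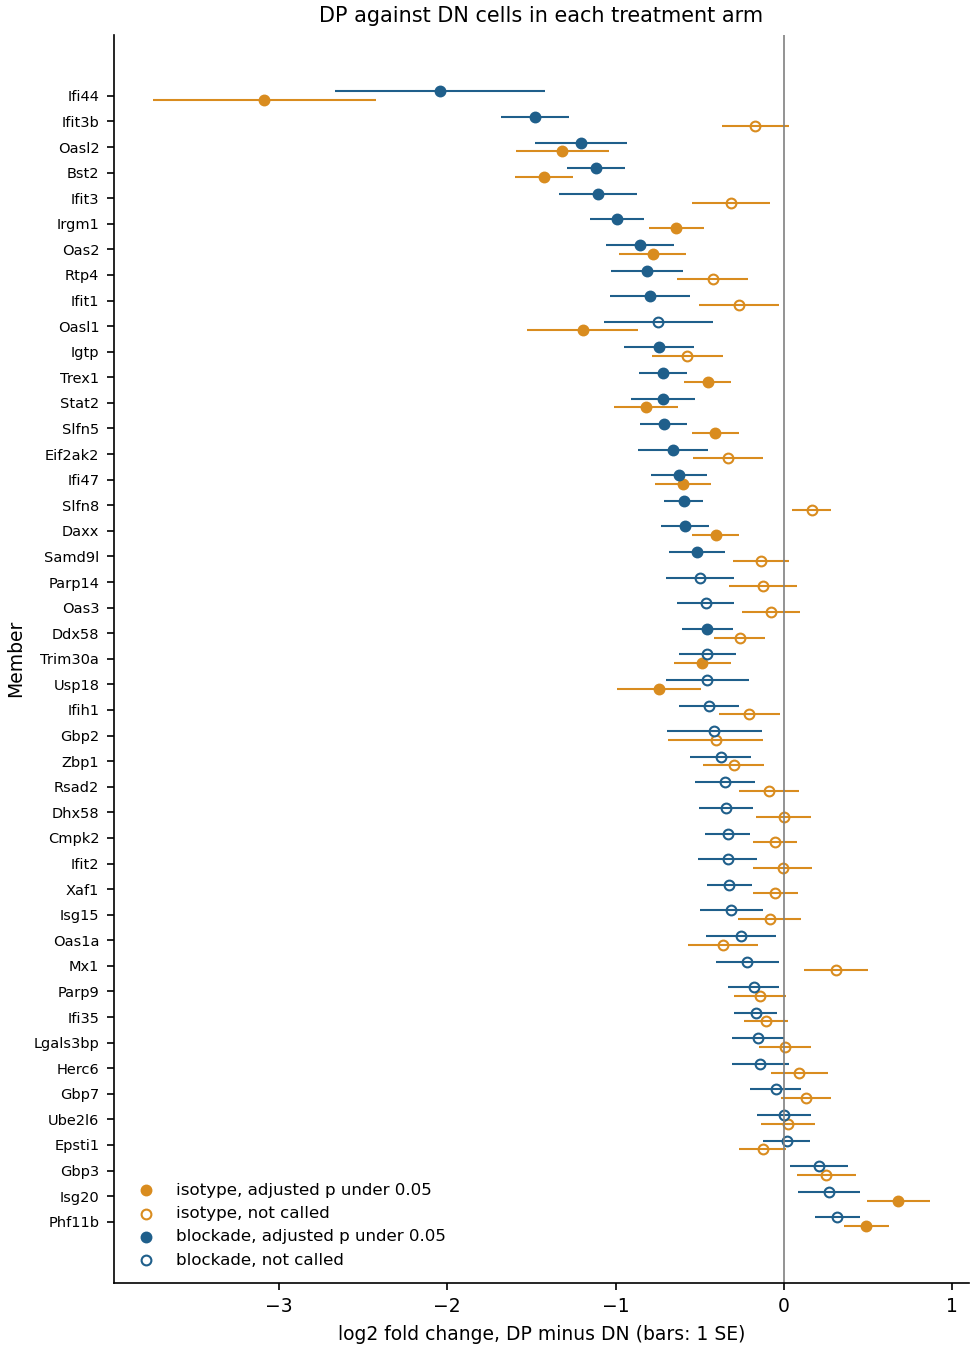
Points are log2 fold changes (DP minus DN) of each member on the x axis, after isotype (orange) and after blockade (blue), with bars of 1 SE and filled points for an adjusted p under 0.05. Filled points lie to the left of 0 for 13 members after isotype and 19 after blockade, and only Isg20 and Phf11b have filled points to the right.

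These counts depended on single libraries. Without DN blockade replicate 2 or without DP blockade replicate 2, the blockade count fell from 19 to 10 members, while that of all genes fell from 3412 to 2709 and 2425. Without DN isotype replicate 2, the isotype count fell from 15 in both directions to 9, and without DP isotype replicate 1, 2 or 3 to 8, 9 and 9. Over all genes, 3792 calls became 3005 without DN isotype replicate 2, and 2916, 3124 and 3073 without DP isotype replicate 1, 2 or 3. Isg20 and Phf11b lost their calls without DP isotype replicate 3. Without the libraries numbered 1 in both isotype groups, an alternative added after seeing the data, 5 members were lower and 0 higher, and 2307 genes were called in all.

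Markers of plasmacytoid dendritic cells, which make large amounts of type I interferon and express Bst2, moved with the same contrast. After isotype their 15 genes summed to 2485 to 3865 CPM (DN) against 516 to 543 CPM (DP), and after blockade to 1584 to 2471 CPM (DN) against 583 to 752 CPM (DP). Of the 15, 14 were lower in DP cells after isotype and 13 after blockade. Siglech, a defining marker, lay between 214 and 725 CPM in the 6 DN libraries and between 0 and 7.45 CPM in the 6 DP libraries. Between the DN groups these markers had a median log2 fold change of -0.70 after blockade, on the opposite side from the members. Myeloid genes were higher in DP cells, with sums of 512 to 592 CPM in DP isotype against 191 to 228 CPM in DN isotype libraries, where Fcgr1 and Adgre1 were at 0. The part of these cells in the members' values was not tested.

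Most receptor and kinase genes of interferon signalling were also lower in DP cells, beside the 14.9% and 12.5% of all genes that were lower in the isotype and blockade arms. Of 7 receptor and kinase genes, 6 were lower in each arm: Ifnar1, Ifnar2, Ifngr1, Ifngr2, Jak1 and Jak2. Tyk2 had positive log2 values that did not pass, 0.26 after isotype (adjusted p = 0.063 in edgeR) and 0.13 after blockade (adjusted p = 0.36). Ifnar2 differed by -1.38 and Ifngr2 by -2.23 on the log2 scale after isotype. Of 8 transcription factors, 3 were lower after isotype (Irf1, Irf7 and Irf8, the last also a plasmacytoid marker) and 2 after blockade (Irf1 and Irf7). Of 3 inhibitors, Socs1 and Socs3 were lower in both arms. Ifng, the gene of interferon gamma, was higher in DP cells, with 107 to 119 CPM against 16.4 to 20.1 CPM after isotype, a log2 fold change of 2.61 with an adjusted p of 4.6e-06 in edgeR. Ifng also rose in DN cells after blockade, from 18.6 ± 1.94 to 42.9 ± 12.5 CPM (SD, n = 3), a log2 fold change of 1.20 with an adjusted p of 0.028 in edgeR. Ifnb1 was at 0 in every bulk library except 1 DN blockade library at 0.380 CPM. Of 47 other interferon-induced genes tested, 2 were higher in DN cells after blockade (Ifi204 and Ifitm2) and 0 lower. In DP against DN cells, 6 of the 47 were higher and 6 lower after isotype, and 2 were higher and 10 lower after blockade.

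In the subset experiment, memory-like cells carried more of a few interferon-stimulated genes than naive-like cells. By edgeR's test 6 of 45 members were higher and 0 lower (13.3%, where 5.62% of all genes were called, 2.81% in each direction), and 38 of 45 had a positive log2 fold change, with a median of 0.39. Isg20 had the smallest p. Its memory-like replicates 1 to 5 stood at 84.5, 59.6, 32.9, 76.1 and 52.2 CPM, and its naive-like replicates had a lowest value of 14.4, a median of 21.4 and a highest of 31.7 CPM. The groups did not overlap, as for 3 members in all (Isg15, Isg20 and Trex1, all higher), where 2.87% of all genes lay wholly above and 2.9% wholly below. The log2 fold change of Isg20 was 1.42 ± 0.27 (SE) with an adjusted p of 0.0055 in edgeR.

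Usp18, which removes ISG15 from proteins and blocks the type I receptor, ranged from 72.7 to 154 CPM in memory-like and from 26.2 to 88.3 CPM in naive-like libraries, a log2 fold change of 1.21 ± 0.27 (SE) with an adjusted p of 0.014 in edgeR. Isg15 stood at 41.8, 50.6, 45.5, 80.4 and 71.4 CPM in memory-like libraries and between 10.2 and 37.8 CPM in naive-like libraries, with no overlap. Its log2 fold change was 1.16 ± 0.30 (SE), with an adjusted p of 0.035 in edgeR, and the call was lost without naive-like replicate 2 or 5 or memory-like replicate 4 or 5. Eif2ak2, the kinase PKR that stops translation on double-stranded RNA, differed by 0.96 ± 0.22 (SE) on the log2 scale, and lost its call without memory-like replicate 1 or 3. Phf11b differed by 0.94 ± 0.22 (SE), and lost its call without memory-like replicate 1 or 4. Bst2 differed by 0.99 ± 0.24 (SE), with 119 to 278 CPM in memory-like and 66.3 to 162 CPM in naive-like libraries, and lost its call without memory-like replicate 3 or 5 or naive-like replicate 2 or 5. Memory-like replicates 3 and 5 had the 2 highest values of Bst2, 269 and 278 CPM, and the plasmacytoid marker sum was 578 to 2712 CPM in memory-like libraries, highest in replicate 5, against 161 to 800.3 CPM in naive-like libraries. Of those 15 markers 3 were higher in memory-like cells and 0 lower, with a median log2 fold change of 2.21; their part in the members' values was not tested.

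Effector-like cells were higher than naive-like cells for 3 of 45 members and lower for 0, where 6.51% of all genes were called (2.66% higher, 3.85% lower). Without overlap, 3 members lay wholly above (Isg15, Mx1 and Trex1) and 0 below, where 6.32% and 6.55% of all genes did. Trex1 led, with 148, 138 and 237 CPM in effector-like and 69.1 to 91.8 CPM in naive-like libraries, a log2 fold change of 1.19 ± 0.17 (SE) with an adjusted p of 0.00022 in edgeR. Phf11b differed by 1.11 ± 0.25 (SE) on that scale and Isg15 by 1.27 ± 0.34 (SE). Without effector-like replicate 3, Phf11b and Isg15 lost their calls, and 1 member remained called; Isg15 also lost its call without naive-like replicate 2 or 5. Without naive-like replicate 1, 5 members were called. The OAS genes had a median log2 fold change of -0.86 and the IFIT genes one of 0.98, with no OAS or IFIT gene called.

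Between effector-like and memory-like cells 1 of 45 members passed, where 1.96% of all genes did (0.517% higher, 1.44% lower). Trex1 was higher in effector-like cells, against 91.8, 102, 104, 97.2 and 126 CPM in memory-like libraries, with a log2 fold change of 0.74 ± 0.18 (SE) and an adjusted p of 0.039 in edgeR. It lost its call without effector-like replicate 3 or without memory-like replicate 1, 2, 3 or 4. Oasl2 and Bst2 had the next smallest p, with log2 fold changes of -1.08 ± 0.33 (SE) and -0.96 ± 0.30 (SE) and adjusted p-values of 0.13 and 0.15 in edgeR. Plasmacytoid markers, of cells that express Bst2, moved the same way: they summed to 206 to 349 CPM in effector-like and 578 to 2712 CPM in memory-like libraries, with 2 of 15 lower and a median log2 fold change of -3.08, and their part was not tested. Every effector-like library of Oasl2 (33.7 to 41.0 CPM) lay below every memory-like library (49.6 to 97.0 CPM), as 5.26% of all genes did. Trex1 was the 1 member wholly above, as 4.75% of all genes were. Ifng was higher in effector-like and memory-like than in naive-like cells, by 2.35 and 1.78 on the log2 scale, and Socs1 and Socs3 were lower in both.

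Libraries of 1 group differed in the members as a block. A library score was taken as the mean of log2(CPM + 1) over the 45 members. In the subset libraries it reached from 6.39 to 7.12 (effector-like), 6.40 to 7.11 (memory-like) and 5.99 to 6.82 (naive-like). In DN libraries it reached from 6.37 to 6.64 after isotype and from 6.498 to 7.01 after blockade, and each of these ranges was wider than the distance between the means of 6.52 and 6.71. In DP libraries it reached from 6.07 to 6.38 after isotype and from 6.04 to 6.41 after blockade. The DN and DP isotype groups overlapped, with the lowest DN library (replicate 1) at 6.37 below the highest DP library (replicate 3) at 6.38.

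**Figure D3:**
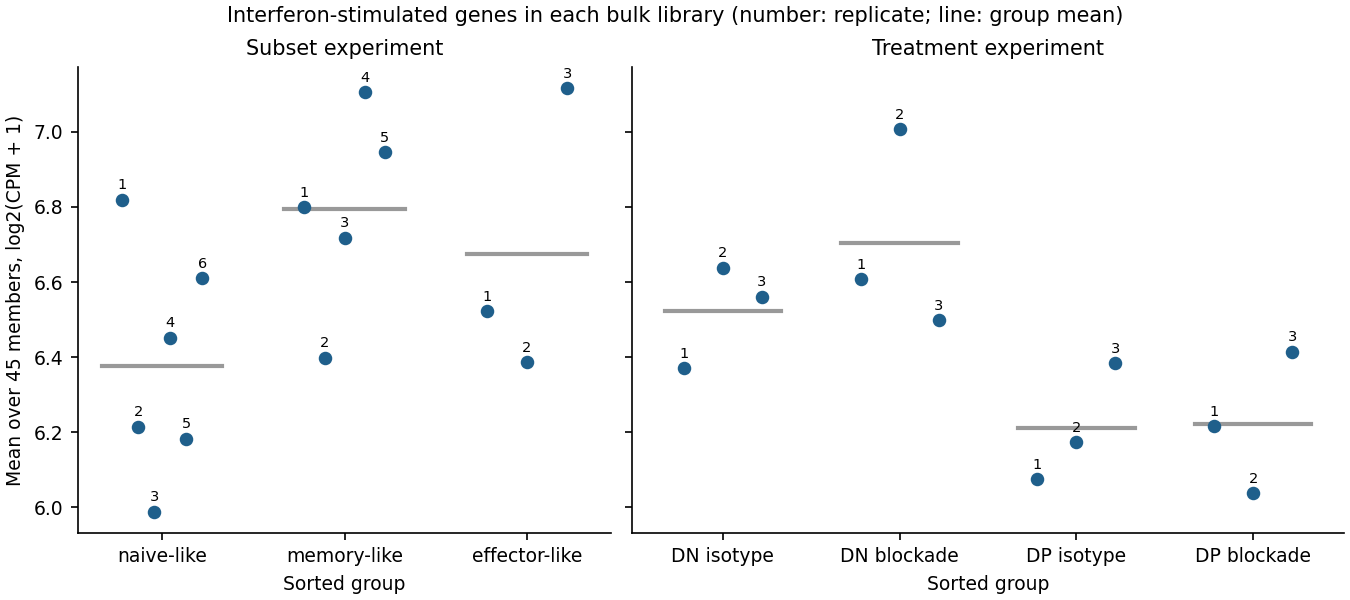
Each point is 1 bulk library, numbered by its replicate, at the mean of log2(CPM + 1) over the 45 members, and the grey line is the group mean. Effector-like replicate 3 (7.12), memory-like replicate 4 (7.11) and DN blockade replicate 2 (7.01) stand highest.

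In groups of 3, 1 library held the highest value of most members. It was effector-like replicate 3 for 41 of 45 members, DN blockade replicate 2 for 40, DP isotype replicate 3 for 41, DP blockade replicate 3 for 34 and DN isotype replicate 2 for 28. The same libraries held the highest value of 36.4%, 37.8%, 32.4%, 33.3% and 42.0% of all genes tested. Naive-like replicate 1 lay above its group's median for 40 of 45 members, where it did so for 48.7% of all genes. DN isotype replicate 1 was lowest for 33 members and highest for 0, where it was lowest for 24.8% and highest for 25.4% of all genes tested.

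The numbers in the library names show where the same deviation recurred. In the isotype arm, the libraries numbered 2 (DN replicate 2 and DP replicate 3) had the highest score of both groups, and those numbered 1 (replicate 1 of each) had the lowest. In the blockade arm, the libraries numbered 8 (DN replicate 3 and DP replicate 2) had the lowest score of both groups, while the highest were number 7 in DN and number 9 in DP cells. Memory-like replicate 4 and effector-like replicate 3, the highest of their groups, both carry number 5. Naive-like replicate 5, which also carries it, had the second lowest score of its group. The name of effector-like replicate 2 includes number 5 as well, and that library had the lowest score of its group. The labels do not say what these numbers stand for.

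The within-group spread of single members lay above that of all genes in some groups and below it in others. The median SD of log2(CPM + 1) was 0.19 for the members and 0.23 for all genes in DN isotype, 0.26 and 0.22 in DN blockade, 0.18 and 0.18 in DP isotype, and 0.24 and 0.16 in DP blockade libraries. It was 0.48 and 0.50 in naive-like, 0.38 and 0.46 in memory-like, and 0.44 and 0.39 in effector-like libraries. Gbp2, a guanylate-binding GTPase, was 1 of the uneven members: it stood at 156, 342 and 149 CPM in DN blockade and at 911, 246 and 347 CPM in effector-like libraries. Igtp, an immunity-related GTPase, stood at 176, 344 and 232 CPM in DN blockade and at 146, 206 and 203 CPM in DN isotype libraries. Mx1, a GTPase that traps viral ribonucleoproteins, stood at 107, 145 and 112 CPM in DN blockade and at 82.2, 107 and 86.1 CPM in DN isotype libraries, and Rsad2, the enzyme viperin, at 68.8, 103 and 72.2 against 68.5, 90.4 and 88.4 CPM. Trim30a showed the same shape, with 197, 252 and 187 CPM in DN blockade and 193, 258 and 199 CPM in DN isotype libraries.

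In single DN cells the same genes differed far more between the treatments. The single-cell columns were assigned by the number at the end of each cell's name, 1 for the isotype and 2 for the blockade library as numbered in the labels, and every direction below rests on that. There was 1 library per treatment, so there is no test, and the intervals cover only the counting of molecules or the sampling of cells. After a filter, 2950 isotype cells with 12390885 UMIs (counted molecules) and 2502 blockade cells with 12399243 UMIs were kept, with medians of 3652 and 3839.5 UMIs per cell. The libraries shared 7 cell barcodes.

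All 43 members with at least 50 UMIs were higher in the blockade library, and 42 were at least 1.5-fold higher. Over the 9994 genes with as many UMIs, 17.3% were at least 1.5-fold higher and 4.21% lower. The median log2 ratio was 1.57 for the members, a fold of 2.97, and 0.16 for all genes. Summed, the members took 2042 CPM of the isotype and 5208 CPM of the blockade library, a ratio of 2.55 with an exact 95% interval of 2.51 to 2.59.

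Ifi44 had the largest ratio on few molecules, with 12 and 90 UMIs, or 7.50-fold (4.09 to 15.04). Ube2l6, the enzyme that hands ISG15 on to its targets, followed at 5.35-fold (4.33 to 6.66). Isg15 itself rose from 90.1 CPM (84.9 to 95.5) to 386 CPM, 4.28-fold (4.01 to 4.57), and was seen in 15.1% of isotype and 46.8% of blockade cells. Irgm1 was 4.22-fold, Gbp2 4.02-fold, Oasl1 3.77-fold, Rsad2 3.73-fold, Cmpk2 (a nucleotide kinase beside Rsad2 in the genome) 3.72-fold, Ifit3 3.69-fold and Mx1 3.66-fold higher. Bst2, at 191 CPM in the isotype library, was 2.22-fold higher, and Stat2 2.48-fold. Epsti1 was the exception, with 400 CPM and 522 CPM, or 1.31-fold (1.26 to 1.35). Trex1 had 0 UMIs in both libraries (up to 0.298 CPM in the isotype library by its exact interval), although it reached 82.3 to 131 CPM in the bulk DN libraries, and Oas2 had 44 UMIs in all, under the minimum.

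Low, middle and high cells all held more member UMIs in the blockade library. Member UMIs per 10000 UMIs of a cell had a median of 15 in isotype and 39.9 in blockade cells. The 5th and 95th percentiles were 2.99 and 66.5 in isotype and 10.0 and 162 in blockade cells. Of the blockade cells, 88.1% (exact binomial 95% interval 86.8 to 89.4%) lay above the isotype median and 27% (25.3 to 28.8%) above the isotype 95th percentile. These intervals treat cells as independent draws and the isotype percentiles as fixed. Cells are not replicates of a treatment, so the intervals do not cover the spread between libraries. Thinned to 2000 UMIs per cell, the medians were 3.0 and 8.0 member UMIs; this left out 251 isotype and 0 blockade cells as too shallow. The top 10% of cells held 39.9% of member UMIs in the isotype and 37.9% in the blockade library.

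Cells were also clustered without the members and the other interferon genes. In all 6 clusters with at least 50 cells of each library, the summed members were higher in blockade cells, with ratios of 1.13 to 2.11, all below the 2.55 of the whole libraries. The level differed between clusters within a library. Cluster 5, led by Gzmm and Itm2a, held 1335 CPM in isotype and 2336 CPM in blockade cells, while cluster 1, led by the effector genes Ccl5 and Gzma, held 3650 and 6003 CPM. Cluster 4, led by Dapl1 and Rgcc with the naive genes Ccr7 and Lef1, held 1528 and 3014 CPM. Cluster 2, led by Klra7 and Klra6, held 2835 and 4669 CPM, and cluster 6, led by cell cycle genes, held 1395 and 2940 CPM. Cluster 3, led by haemoglobin genes and Cxcr6, had the smallest ratio, with 5929 and 6689 CPM. Of the smaller clusters, number 8, led by H2-Aa and Cd74, went the other way, with 6177 and 5224 CPM in 15 and 21 cells. Cluster 7, led by the tumour gene Krt8, held 474 and 3965 CPM in 31 and 28 cells, an 8.37-fold ratio, and cluster 9, led by the myeloid gene Lyz2, held 6363 and 9674 CPM in 2 and 42 cells.

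The libraries filled these clusters unequally: cluster 4 held 37.9% of isotype and 2.08% of blockade cells, and cluster 3 held 7.22% and 32.1%. With the isotype library's shares of cells in the 6 larger clusters applied to both, the summed members stood at 2222 and 3680 CPM, a ratio of 1.66. These values weigh clusters by cells and leave out the smaller clusters. The 2042 and 5208 CPM of the whole libraries, with a ratio of 2.55, sum the UMIs of all cells kept, so the ratios are not like measures. A cluster that is mostly 1 library may reflect that library and not a type of cell, and doublets were not removed.

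**Figure D4:**
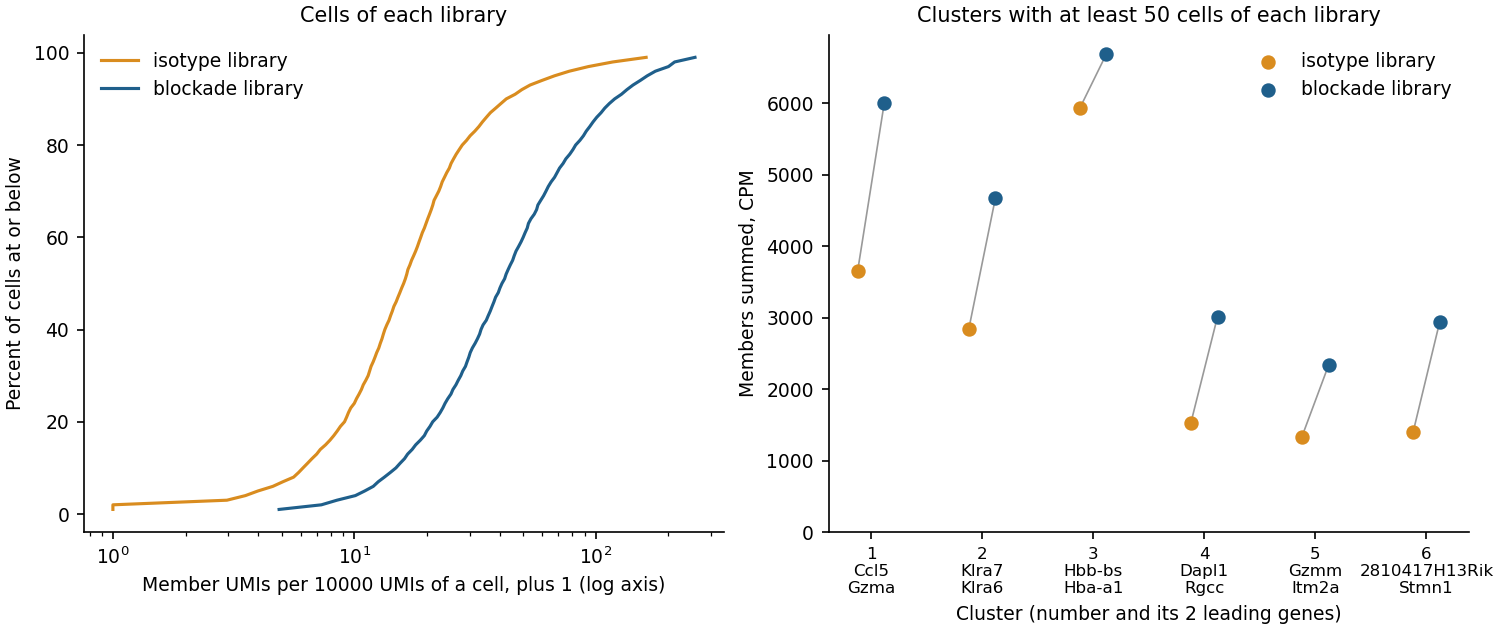
Left, the percent of cells (y axis) at or below each number of member UMIs per 10000 UMIs of a cell plus 1 (log axis), for the isotype (orange) and blockade (blue) library. Right, summed members in CPM for the 6 clusters with at least 50 cells of each library; each pair of points rises, from 1.13-fold in cluster 3 to 2.11-fold in cluster 6.

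Markers of other cells moved with the single-cell difference too. Myeloid genes summed to 233 CPM in the isotype and 900.1 CPM in the blockade library, with all 12 at least 1.5-fold higher, and red cell genes to 8.80 and 144 CPM, which is the opposite direction from the bulk DN libraries. Siglech had 0 UMIs in both. Naive markers fell from 1662 to 916 CPM and effector markers rose from 7541 to 14630 CPM, the same directions as the group medians in bulk DN cells. The sums of other lists ran opposite to bulk. Ly49 genes and Ikzf2 summed to 287 CPM in the isotype and 508 CPM in the blockade library, where bulk DN medians were 212 and 126 CPM. Natural killer genes summed to 114 and 490 CPM, with 3 of 3 past 1.5-fold. Most of that sum was Fcer1g (57.9 and 309 CPM) and Tyrobp (45.8 and 165 CPM). Klrb1c stood at 9.60 and 15.7 CPM, and Ncr1 had 6 and 12 UMIs. Plasmacytoid genes summed to 171 and 267 CPM but were split: of 12 with 50 UMIs, 5 were higher and 3 lower past 1.5-fold. Irf8, also in the transcription factor list, stood at 41.2 and 106 CPM, and Ccr9 at 23.9 and 10.5 CPM. In bulk DN cells the natural killer and plasmacytoid lists had median log2 fold changes of -0.30 and -0.70. Cells with 3 or more UMIs of myeloid, plasmacytoid dendritic, B or tumour markers (natural killer markers were not used) were 5.29% of isotype and 10.3% of blockade cells. Without them the summed members stood at 2136 and 5398 CPM, and 41 members were past 1.5-fold.

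Of the genes around the members, the transcription factors and other induced genes were mostly higher in the blockade library, and the receptors, kinases and inhibitors mostly were not. Ifng stood at 104 and 239 CPM, and Irf7, the factor that amplifies type I interferon, at 76.3 and 213 CPM. Of 8 transcription factors 7 were at least 1.5-fold higher, of 7 receptors and kinases 1 (Ifngr1, 450.3 and 890.1 CPM), of 3 inhibitors 0, and of 42 other induced genes with 50 UMIs 36, with 0 lower in any of these lists. Ifnb1, Ifna1, Ifna2, Ifna4, Ifnl2 and Ifnl3 had 0 UMIs.

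Set side by side, all 43 members had a larger log2 value in single cells than in bulk DN libraries, and for 42 the gap was over 2 SE of the bulk value. The medians were 1.57 and 0.23. Both values were positive for 36 members, while 7 were higher in single cells and negative in bulk. Across the 43 members the Pearson correlation was -0.02 and the Spearman correlation 0.16, given as a description, since the points share the same libraries. The bulk values ran from -0.32 to 0.75 with SEs of 0.12 to 0.58, and none was called. Errors of that size can lower a correlation, so these values do not show that the effects were unrelated. Ube2l6 had the second largest single-cell ratio and a bulk log2 fold change of -0.28 ± 0.16 (SE), and Slfn8, first by p in bulk, had a single-cell log2 ratio of only 0.73. The single-cell libraries are single draws from a group whose bulk libraries ranged as given by the library scores, and counting intervals do not include that spread.

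**Figure D5:**
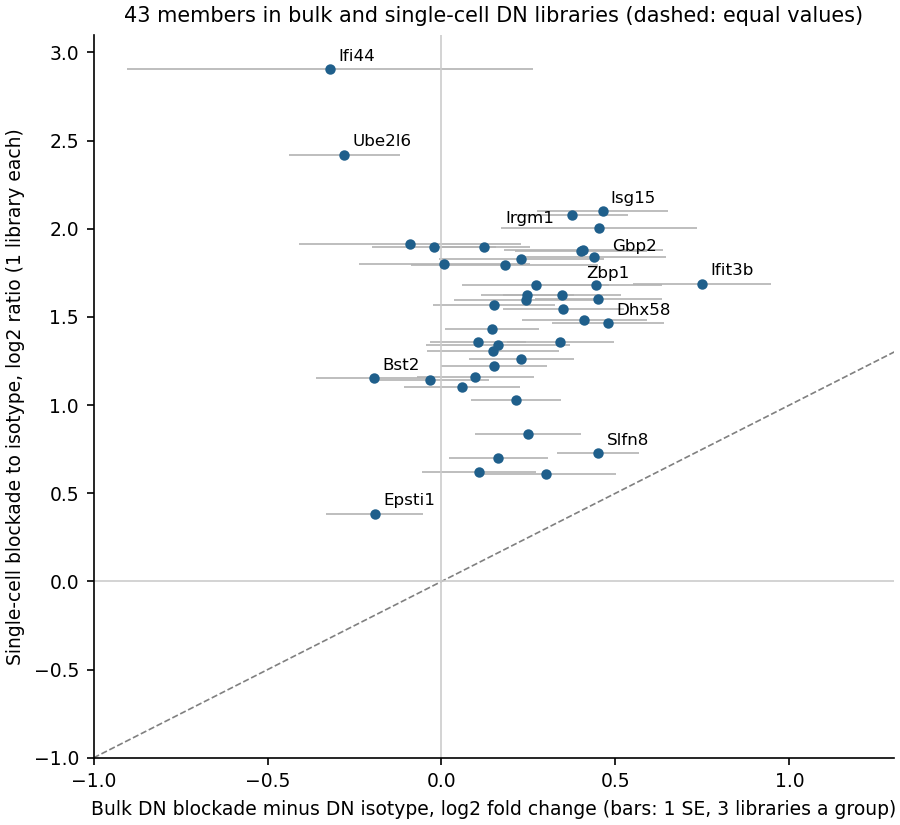
Each point is 1 of 43 members, with the bulk DN log2 fold change (blockade minus isotype, bars of 1 SE) on the x axis and the single-cell log2 ratio on the y axis. Every point lies above the dashed line of equal values, and 7 lie to the left of 0.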

How the data were processed

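The deposited bulk tables hold expected counts (estimated reads per gene) that the authors made from an adapted SMART-Seq2 protocol on sorted cells; TopHat, RSEM, DESeq and the mm9 build are named in the submitters' processing notes, with no version or role. Per the labels, the single-cell table holds UMI counts from 10x Chromium libraries, and the submitters' processing notes name Cell Ranger 1.3 and mm10. The deposited normalized and scaled tables were not used. Strand and exact counting rules are not given in the sources used here.

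Duplicate gene names (4 rows of the subset table) were dropped. Each experiment had its own edgeR fit (version 4.0.16, R 4.3.3) on rounded expected counts: filterByExpr left 12388 and 12710 genes, TMM scaled the libraries, and group means with no block went into the robust quasi-likelihood test. A call is an adjusted p (Benjamini-Hochberg, all genes) under 0.05. The SE is the log2 fold change divided by the root of F. The biological coefficient of variation was 0.624 over the subset libraries and 0.229 over the treatment libraries, so smaller differences pass in the latter. The fit was tested on simulated data. Ribosomal RNA (Rn45s) took 10.7 to 20.7% of counts. By title number the deviations of DN isotype and DN blockade libraries from their means correlated at 0.122, 0.383 and 0.184 in the 3 pairs. This passed the limit of 0.1 in every pair, so the title number was tried as a block. It does not establish a pairing: the labels give no reason for one, and these groups came from differently treated mice. By the number in the library name, effector-like replicate 3 and memory-like replicate 4, the 1 pair of those groups, correlated at 0.236. No other numbering met the limit of 0.1 in every pair.

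Cells under 500 genes or over 10% mitochondrial UMIs were dropped, and doublets were neither called nor removed. UMIs were summed by library, with exact Poisson intervals (95%) on CPM and intervals conditional on the summed UMIs on ratios. Clusters were made without the members, the pathway lists and mitochondrial genes, with scanpy 1.11.5 (2000 variable genes, 30 components, 15 neighbours, Leiden resolution 0.6, igraph 0.11.9). Promoters came from RefSeq (GRCm38.p6); bulk coordinates were not used.

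The members, gene lists and comparisons were chosen with earlier results of these data known. Named are called members in order of p, at most 8 each way, or the 3 smallest p where fewer than 3 were called, the single-cell members with the largest ratios (at most 10), and 12 members fixed for levels. Others, such as Epsti1, Ube2l6 in bulk and Trex1 in single cells, were picked after their values were seen. The values of 1 pathway gene are not reported here.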

Additional observations from a re-analysis of the deposited data

Results flagged for a closer look

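In a check of 26 sets of 4 to 10 libraries (the library score and the 12 members fixed for levels, in the naive-like and memory-like groups), 1 library stood apart from the others of its group by Dixon's criterion at 95%. Gbp2 was at 818 CPM in naive-like replicate 6, while the other 5 naive-like libraries lay between 311 and 427 CPM. Chance flags about 1 in 20 such sets.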

How the results depend on the processing

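Each count was recomputed with DESeq2 1.42.0, other size factors, no filter, only the compared groups, a replicate block and each library left out. No result changed direction. Between effector-like and memory-like cells, 1 called member became 0 with the title number as a replicate block and 0 with only the compared groups, 3 with DESeq2, and 0 to 1 with 1 library left out. Between effector-like and naive-like cells, 3 became 1 to 5 with 1 library left out. Between memory-like and naive-like cells, 6 became 10 with DESeq2 (9 higher, 1 lower), 3 with the number in the library name as a replicate block and only the compared groups, and 4 to 8 with 1 library left out. For DN blockade, 0 became 2 with DESeq2, 1 with the title number as a replicate block, and 1 with that block in DN libraries only (added after seeing the data); without any 1 library it remained 0. For the interaction, 0 became 2 with DESeq2. For DP minus DN after isotype, 15 became 8 to 12 with 1 library left out, and 5 without the libraries numbered 1 of both groups, an alternative added after seeing the data. For DP minus DN after blockade, 19 became 10 to 22. With the number in the library name as a replicate block, the DP minus DN counts were 16 and 22. Over all genes, DN blockade called 157, against 541 with DESeq2 and 4 with only the compared groups; DESeq2 called 484 against 243, 1195 against 696, 56 against 6 and 97 against 0 genes between effector-like and memory-like cells, between memory-like and naive-like cells, for DP blockade and for the interaction. The cause was not tested. The block by title number changed no other count by over 1.5 times. Of 529 values of named members under alternatives, 478 kept their call and direction, 43 lost and 8 gained a call. In single cells, the log2 ratio of summed members (1.35) was 1.34 to 1.35 and the count past the fold 41 to 42 over 4 alternatives.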
